A study of Xenopus laevis with 4 samples.

Results

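ETS2-bound regions were followed along chromosomes 1L and 1S of the frog Xenopus laevis, the longest pair of homeologous chromosomes in its genome. The members are all rows of the authors' list of common regions (regions called as a peak in both ChIP libraries) that lie on 1L or 1S. They number 8176 of 61137 (13.4%), with 4727 on 1L and 3449 on 1S. The series measured binding by chromatin immunoprecipitation and sequencing (ChIP-seq) in whole embryos. Every embryo, including those behind the inputs, had received 750 pg of mRNA for ETS2 with a triple FLAG tag and was taken at stage 11.5, in mid-gastrulation. The 2 ChIP libraries, made with a FLAG antibody, are lettered A and C and are named library 1 and library 2 here, and the 2 input libraries had no antibody. The protein was therefore supplied from injected mRNA throughout, and no ChIP from embryos without it was analysed here. Whether the 2 libraries represent separate clutches of embryos is not stated.

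ETS2 belongs to the ETS transcription factors, which bind DNA through a shared ETS domain around a short GGAA core. Several ETS factors are phosphorylated by MAP kinase downstream of FGF receptors, a pathway that patterns the mesoderm of the gastrula. Xenopus laevis is allotetraploid: its L and S subgenomes come from different ancestral species, so most ancestral loci were inherited as an L and an S copy, and S has lost more genes than L since. Partner chromosomes such as 1L and 1S are called homeologous. No sequence or gene is shown for the regions, because the labels name no genome build and no genome was used.

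The files hold coordinates and, per peak, a value that was taken for −log10 p or −log10 q, which is the authors' own and serves only to rank peaks within a list. Sequencing depth is unknown. On 1L there were 5299 peaks in library 1 and 12471 in library 2, and on 1S there were 3873 and 9256. Of the library 1 peaks, 97.3% on 1L (exact Clopper-Pearson 95% binomial interval 96.8 to 97.7%) and 97.1% on 1S (96.5 to 97.6%) lay in a common region. Of the library 2 peaks, 37.9% on 1L (37.1 to 38.8%) and 37.3% on 1S (36.3 to 38.3%) did. Such intervals cover counting error only, and neighbouring regions are not independent. All 8176 regions had the outermost bounds of the peaks inside them.

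ETS2 regions were denser on 1L than on 1S. Taking the end of the last peak in any list as the length (220 Mb for 1L and 180 Mb for 1S), there were 21.5 regions per Mb on 1L and 19.2 per Mb on 1S, a ratio of 1.12 (95% counting interval 1.07 to 1.17). The peak list of library 1 alone gave 24.1 peaks per Mb on 1L and 21.5 on 1S, a ratio of 1.12. The list of library 2 alone gave 56.7 and 51.4 peaks per Mb, a ratio of 1.10. Both libraries therefore placed 1L above 1S by about the same factor. As 1 chromosome pair is 1 value, the ratio carries no p-value. Among the 9 pairs it was the third highest, and the other 8 pairs ranged from 0.980 to 1.18. Among the 18 chromosomes, 1L ranked 9 and 1S ranked 16 by density, and the other 16 chromosomes ranged from 18.7 per Mb on 5S to 27.6 on 9_10L. Because 1L is also 1.22 times as long as 1S, it carried 1.37 times as many regions.

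The excess on 1L was uneven along the chromosome. In bins of 5% of each chromosome's length, 1L was denser than 1S in 15 of 20. The bin from 35 to 40% held 23.2 regions per Mb on 1L (255 regions) and 13.7 on 1S (123 regions), a ratio of 1.70. The last bin, from 95 to 100%, held 18.7 per Mb on 1L and 12.2 on 1S, a ratio of 1.53. In that bin library 1 alone had 20.9 peaks per Mb on 1L and 13.3 on 1S. Library 2 alone had 52.1 on 1L and 45.7 on 1S, so the relative excess there was smaller in library 2. The bin from 40 to 45% also had a ratio of 1.53 in common regions (28.9 on 1L and 18.9 on 1S). From 60 to 75% of the length, where both chromosomes were dense, the densities were 28.0 per Mb on 1L and 28.3 on 1S, a ratio of 0.988 (counting interval 0.897 to 1.09). Over all other positions they were 20.4 on 1L and 17.5 on 1S, a ratio of 1.16 (1.10 to 1.22). This stretch was singled out after its values were seen, and the difference between the ratios was not tested.

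**Figure D1:**
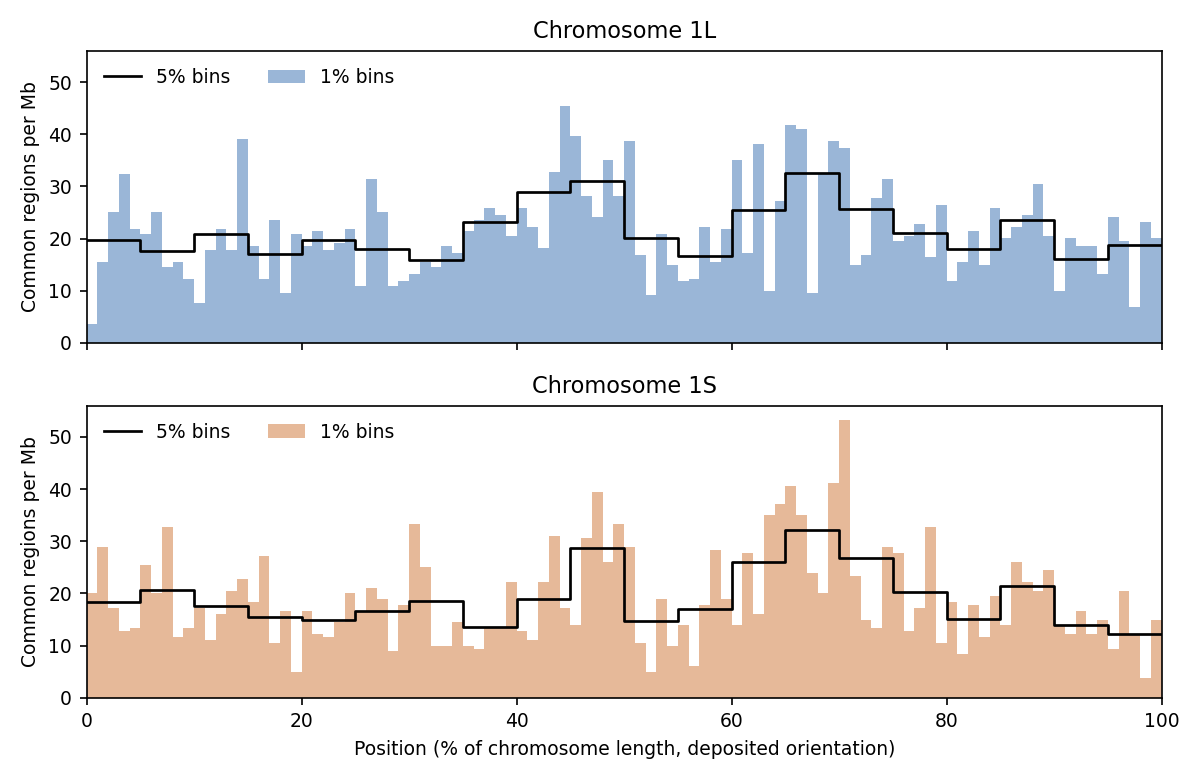
Common ETS2 regions per Mb along 1L (top) and 1S (bottom) against position in percent of chromosome length, in bins of 1% (bars) and 5% (line). Both lines peak between 65 and 70%, at 32.7 per Mb on 1L and 32.1 on 1S, and have their second highest bin between 45 and 50%.

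In the deposited orientation, the broad profiles of 1L and 1S resembled each other. The bin from 65 to 70% was the densest on both, with 32.7 regions per Mb on 1L and 32.1 on 1S. The bin from 45 to 50% ranked second on both, with 31.0 per Mb on 1L and 28.7 on 1S. The neighbouring bins dropped on both sides of this second maximum on 1S, to 18.9 per Mb from 40 to 45% and 14.7 from 50 to 55%. On 1L it had a broad shoulder before it (28.9 per Mb from 40 to 45%) and 20.1 per Mb after it. Spearman's rank correlation of the counts was 0.570 across 20 bins, 0.514 across 50, 0.223 across 100 and 0.116 across 200. The division into 20 bins was added after the data were seen. The likeness was thus clearest across 20 and 50 bins. It was weaker across 100, whose bins span 2199 kb on 1L and 1800 kb on 1S, and weakest across 200. Finer bins hold fewer regions each and were not aligned by sequence, so likeness at fine positions was not tested. The correlations are across bins of the same libraries and are given as descriptions without a p-value. Part of them rested on the densest bins. Without the densest 5 bins of each chromosome, the value across 100 bins was 0.0899 in the deposited orientation and 0.0959 with 1S reversed. Across 20 bins it was 0.498 in the deposited orientation and −0.168 reversed without the densest bin of each chromosome, and 0.410 and −0.118 without the densest 2. Across 50 bins without the densest 3 it was 0.425 and −0.0158.

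With 1S turned end to end, the likeness of the whole profiles was lost. The rank correlation was −0.259 across 20 bins, −0.139 across 50, −0.0635 across 100 and −0.100 across 200. The order held in each library alone. Across 20 bins, library 1 peaks gave 0.589 in the deposited orientation and −0.320 reversed, and library 2 peaks gave 0.628 and −0.370. Across 100 bins library 1 peaks gave 0.233 and −0.0733, and library 2 peaks gave 0.233 and −0.109. Most library 1 peaks lie in common regions, so their profile is not independent of that of the common regions. Library 2 peaks that overlapped no library 1 peak gave 0.644 and −0.267 across 20 bins, and 0.247 and −0.0934 across 100. Along the same chromosome, counts of these peaks and of common regions across 20 bins had a rank correlation of 0.804 on 1L and 0.503 on 1S. Strong regions, in the top 10% of all common regions by the mean percentile of their peak values in both lists, gave 0.619 and −0.141. These are values across 20 bins, and across 100 bins strong regions gave 0.238 and −0.0940. Within stretches of 25 bins of 1%, the deposited orientation gave −0.175 for the first 25, 0.259 from 25 to 50%, 0.510 from 50 to 75% and 0.104 for the last 25. With 1S reversed the same stretches of 1L gave 0.157, −0.653, 0.147 and −0.134. The deposited value was thus the higher one in every stretch but the first, where the reversed value was higher. Moving 1S by 1 bin, so that each 1L bin met the 1S bin 1% further along, raised the correlation across 1% bins to 0.378, the highest among shifts of up to 10 bins either way. The highest with 1S reversed was 0.319, at a shift of 9 bins the other way. These are maxima over the shifts and so lie above what a fixed position would give.

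**Figure D2:**
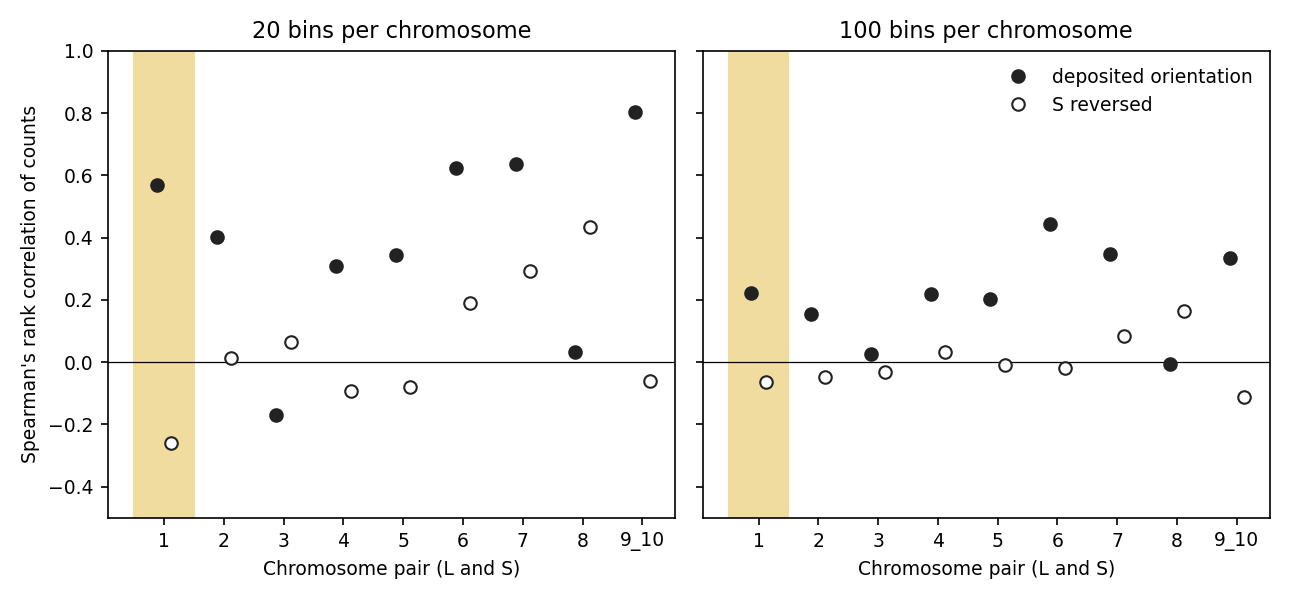
Spearman's rank correlation of region counts between L and S partners, with bins at the same relative position, for the 9 chromosome pairs with 20 bins (left) and 100 bins (right). Filled points are the deposited orientation and open points have S reversed; pair 1, shaded, stands at 0.570 and −0.259 with 20 bins and at 0.223 and −0.0635 with 100 bins.

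Among the 9 pairs, pair 1 ranked first with 50 bins (0.514, others −0.0360 to 0.481), and ranked 4 with 20 bins (0.570, others −0.168 to 0.803) and with 100 bins (0.223, others −0.00626 to 0.445). Its place thus depended on the bin size. With 1S reversed its value across 100 bins ranked 8 of 9 (−0.0635, others −0.112 to 0.165). Reversed, it was the lowest of the 9 with 20 bins (−0.259, others −0.0926 to 0.436) and with 50 (−0.139, others −0.0743 to 0.288). The same held with 200 bins (−0.100, others −0.0753 to 0.114). Across 20 bins the deposited value was above the reversed one in the other pairs too, except in pairs 3 and 8.

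Dense stretches of several Mb stood out on each chromosome. The densest 10 Mb of 1L, in steps of 1 Mb, ran from 94000001 to 104000000 (just before the middle of the chromosome) with 351 regions, 1.63 times the density of the whole chromosome. The densest 10 Mb of 1S ran from 119000001 to 129000000 (centre at 68.9%) with 345 regions, 1.80 times its density. The 1L stretch takes in parts of both the shoulder from 40 to 45% and the second highest 5% bin. The 1S stretch overlaps the highest 5% bin and runs past its end. The sparsest 10 Mb were at 62000001 to 72000000 on 1L (30.5%), with 125 regions, and at 57000001 to 67000000 on 1S (34.4%), with 105. The stretches of 10 Mb were added after the data were seen.

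At 1 Mb, the median window held 21 regions on 1L (interquartile range 13 to 28) and 16 on 1S (11 to 25). The densest windows of 1L were at 151000001 to 152000000 (59 regions), 7000001 to 8000000 (57) and, with 50 each, 146000001 to 147000000 and 152000001 to 153000000. The densest of 1S were at 126000001 to 127000000 (55 regions) and, with 50 each, 85000001 to 86000000 and 125000001 to 126000000. The first of each chromosome lay at nearly the same relative place, 68.9% of 1L and 70.3% of 1S. In this 1L window 5 of 59 regions were in the top 10% of strength, with a median mean percentile of 68.5. In the 1S window 13 of 55 were, with a median of 77.9, where 10% of all common regions are called. The sparsest full windows of 1L held 1 region (23000001 to 24000000), 2 (123000001 to 124000000) and, in 3 windows, 3. Those of 1S held 3 (100000001 to 101000000, and 172000001 to 173000000) and 4 (36000001 to 37000000).

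At 100 kb, dense windows were more frequent on 1L. Windows with 10 or more regions made up 41 of 2199 on 1L (1.86%, 95% interval 1.34 to 2.52%) and 16 of 1801 on 1S (0.888%, 0.509 to 1.44%). Across all 18 chromosomes 1.83% of windows were as dense, so 1L was near this background and 1S below it, and 1S ranked 17 of 18. The dense windows held 10.4% of the regions of 1L and 5.45% of those of 1S. In the other 16 chromosomes they held a median of 10.3% of the regions, from 5.04 to 14.8%. The share of windows that were dense was 2.10 times as high on 1L as on 1S, but this depended on where windows began. With windows moved by 50 kb, dense ones numbered 33 on 1L and 21 on 1S, a ratio of shares of 1.29. It was 1.44 in the list of library 1 alone and 1.20 in that of library 2 alone. Empty windows made up 26.6% on 1L and 29.4% on 1S, against 26.4% on all chromosomes.

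The densest 100-kb windows of 1L were at 6400001 to 6500000 and 58800001 to 58900000, with 17 regions each. The window at 58800001 held 9 gaps under 5 kb and 6 regions of the top 10%, among them the region with the highest library 1 value of either chromosome (58842520 to 58844019, 138 in library 1 and 172 in library 2). They were followed by 170100001 to 170200000 with 15, and by 6 windows with 14, of which the first by position were at 79800001 and 95200001. The densest window of 1S, at 54000001 to 54100000, held 19 regions within 78 kb, with a median gap of 2.74 kb and 6 regions of the top 10%. It was followed by 141000001 to 141100000 with 16 regions, 37600001 to 37700000 with 14, 119200001 to 119300000 with 13 and 126300001 to 126400000 with 12.

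Some of these windows lay near a dense window of the partner in relative position, in both orientations. Of the 20 densest windows of each chromosome, 13 on 1L and 14 on 1S had one of the partner's 20 within 2% of the same relative position. With 1S reversed, 9 on 1L and 10 on 1S had one. A reach of 2% to either side of 20 windows can take in much of a chromosome. Many windows can therefore match in any arrangement. Ties decide part of the 20, since 7 of 10 windows with 12 regions were taken on 1L and 4 of 14 with 9 regions on 1S. In the other 8 pairs, 8 to 15 L windows matched in the deposited orientation and 4 to 14 reversed, so the count of pair 1 was within the range of the others. The window at 77.4% of 1L (15 regions, 170100001 to 170200000) matched that at 78.4% of 1S (16 regions, 141000001 to 141100000). The window at 65.8% of 1L (14 regions) matched that at 66.2% of 1S (13 regions), and also those at 66.5 and 64.1%. The 1L windows at 69.4 and 70.1% shared their matches, from 69.4 to 71.0% of 1S. Matches are thus not one to one, and several lie in the part where both chromosomes were dense. The second window of 1L and the densest of 1S, at 26.8% and 30.0%, were 3.26 points apart and did not count as matched. These named pairs are in the deposited orientation. With 1S reversed, its densest window matched the 1L windows at 69.4 and 70.1%. Reversed, the 1L window at 77.4% also had matches, those at 20.9 and 22.2% of 1S.

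Some chains of regions, with each neighbour under 5 kb from the next, lay at matching places too. Chains of 4 or more took in 430 regions on 1L (9.10%) and 328 on 1S (9.51%), and the largest had 10 regions on each. Across the other 16 chromosomes this share had a median of 10.1% and ran from 8.15 to 13.5%. Their largest chains held 8 to 35 regions, with a median of 12.5. Of the largest 5 chains of 1L and of 1S, 2 on 1L and 2 on 1S had a counterpart within 2% in the deposited orientation, and 0 with 1S reversed. Ties decide part of these 5, since 3 of the 6 chains of 8 regions on 1L were taken, in order of position. Among all chains of 8 or more regions, a limit added after the data were seen, 3 of 8 on 1L and 4 of 5 on 1S had a counterpart in the deposited orientation and 0 with 1S reversed. No such count from the other pairs is given here. The 1S chains at 66.3, 66.5 and 70.5% lie in the part from 60 to 75% where both chromosomes were dense. Matches there are not separate from that broad maximum. The largest chain of 1L, at 154014139 to 154036494, lay at 70.1% of the length. The fifth chain of 1S, at 126973758 to 126995887, lay at 70.5%. A further match was the 8 regions at 6451399 to 6466393 on 1L (2.94%) and the 9 regions at 2695564 to 2717102 on 1S, near the start of each chromosome.

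The chains near 70% had a similar layout, in a comparison made after their values were seen. The 1L chain spanned 22.4 kb with 10 regions covering 9.70 kb, and the 1S chain spanned 22.1 kb with 8 regions covering 9.37 kb. Each opened with a region over 1 kb, of 1200 bp on 1L and 1303 bp on 1S. The second regions differed in width, with 298 bp on 1L and 920 bp on 1S. The widest region began 4.92 kb into the chain on 1L, with a width of 3162 bp, and 5.76 kb into it on 1S, with 2626 bp. On 1L its values were 96.3 (library 1) and 199 (library 2), and on 1S they were 72.0 and 199. The next region began at 9.06 kb on 1L and at 9.57 kb on 1S. Further regions of 972 bp on 1L and 1188 bp on 1S began at 12.8 and 12.1 kb, and regions of 1272 bp on 1L and 1381 bp on 1S at 17.5 and 16.2 kb. In each chain 4 regions were in the top 10% of strength. The remaining regions differed in number: 1L had small ones at 3.70 and 19.6 kb, and 1S had one at 11.1 kb. At the end 1L had regions of 643 bp at 20.3 kb and 350 bp at 22.0 kb, and 1S had a single one of 819 bp at 21.3 kb. Whether the DNA of these chains is homeologous was not tested.

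A comparison of single strong regions, also chosen after their values were seen, set the second strongest region of 1L, at 54142345 to 54143871, beside the strongest of 1S, at 49373025 to 49374636. At 24.6% and 27.4% of the length they lie 2.80 points apart and do not count as matched by position. Within 2% of that 1S region lie the third and ninth strongest of 1L, at 58968233 and 58842520. The 1L region was 1527 bp wide and reached 103 in library 1 and 218 in library 2. The 1S region was 1612 bp wide and reached 101 and 218, and the library 2 value was identical in the file. Ties are frequent at this height: of 324 library 2 peaks above 200, 93 had the value of another. Each region had a smaller one shortly before it, 2.19 kb away and 507 bp wide on 1L and 1.76 kb away and 434 bp wide on 1S. Farther out the surroundings differed, with 7 regions within 50 kb on 1L and 5 on 1S.

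**Figure D3:**
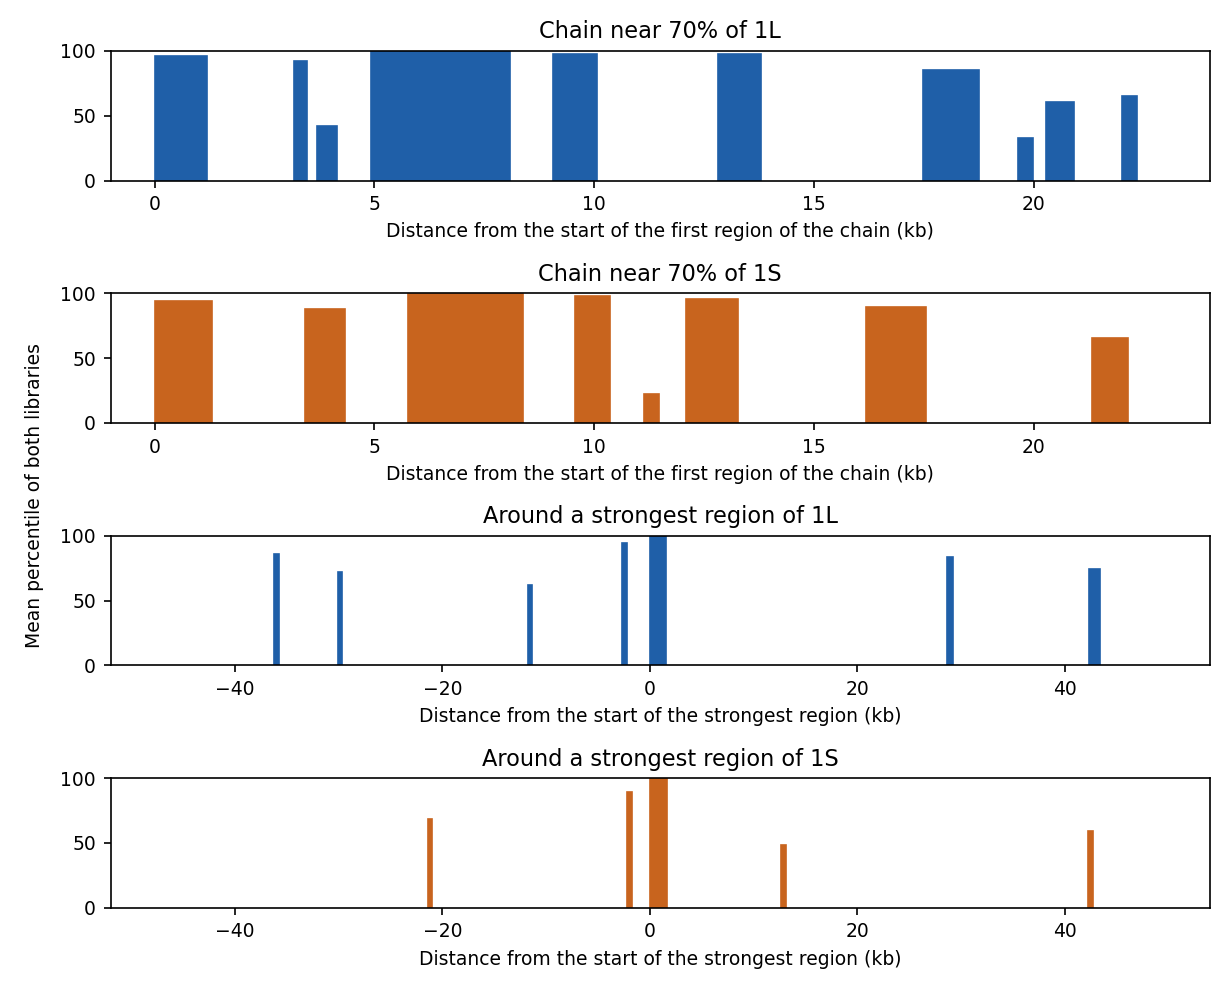
Layout of common regions in the chains near 70% of 1L and 1S (upper pair of panels) and around the second strongest region of 1L and the strongest of 1S (lower pair). The x axis is distance in kb, bar width is region width, and bar height is the mean percentile of the peak value in both libraries; in the chains the widest region starts at 4.92 kb on 1L and 5.76 kb on 1S.

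Neighbouring regions were spaced more closely on 1L than on 1S, mainly at middle and long distances. The median distance from the end of a region to the start of the next was 18.9 kb on 1L (interquartile range 5.36 to 54.3 kb) and 22.0 kb on 1S (5.29 to 63.3 kb). The lower quartiles were thus alike. Among the other 16 chromosomes the median distance ran from 13.5 to 23.1 kb, with a middle value of 19.2 kb. From the longest median distance, 1L ranked 12 and 1S ranked 2 of 18, so 1L was near the middle value. Neighbours under 5 kb apart made up 24.2% on 1L (95% interval 23.0 to 25.5%) and 24.5% on 1S (23.1 to 26.0%). Across the 18 chromosomes the share was 25.6%, so neither chromosome stood above the background. The order of 1L and 1S was not stable: it was 30.4% on 1L and 30.5% on 1S in library 1 alone, and 40.2% on 1L and 38.1% on 1S in library 2 alone. Under 20 kb the shares were 51.2% on 1L and 48.0% on 1S, beside a median of 51.0% in the other 16 chromosomes (47.3 to 58.8%). Distances of 100 kb or more made up 13.1% of those on 1L and 15.8% of those on 1S, and such stretches filled 54.7% of the length of 1L and 59.3% of that of 1S. Regions with 100 kb or more free on both sides numbered 169 on 1L (3.58%) and 162 on 1S (4.70%). In the other 16 chromosomes the share of such regions had a median of 3.30% and ran from 1.76 to 4.61%. The share on 1S lay just above that range. Distances of 100 kb or more had a median share of 12.5% there and ran from 8.98 to 16.8%. They filled a median of 53.3% of the length there, from 45.8 to 61.0%. The mean distance was 2.42 times the median on 1L and 2.34 times on 1S.

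**Figure D4:**
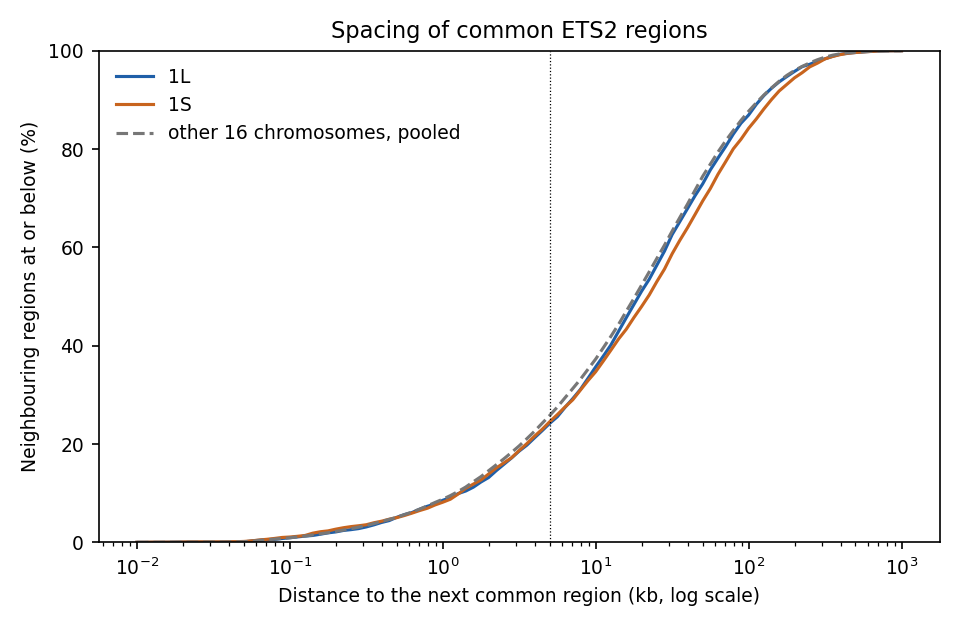
Share of neighbouring common regions whose distance is at or below the value on the x axis (kb, log scale), for 1L, 1S and the other 16 chromosomes pooled; the dotted line marks 5 kb. The curves of 1L and 1S run together up to 5 kb (24.2% and 24.5%) and part beyond it, with 51.2% of 1L and 48.0% of 1S distances under 20 kb.

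The longest stretches without a common region were 879 kb at 123080270 to 123959515 on 1L, then 747 kb at 148167416 to 148914171 and 743 kb at 23396001 to 24138588. On 1S they were 709 kb at 49717301 to 50426373, 686 kb at 38001104 to 38687487 and 665 kb at 94750717 to 95415726. None of them was free of signal in library 2, which had 9, 12 and 9 peaks in those of 1L and 14, 5 and 10 in those of 1S. Library 1 had 0 peaks in 5 of the 6 and 1 in the last. The second stretch of 1L lies within the dense part around 65 to 70% of the chromosome.

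Regions had nearly the same width on both chromosomes. The median was 453 bp on 1L (interquartile range 356 to 624) and 451 bp on 1S (346 to 611). The narrowest measured 139 bp on each. Regions with 2 or more library 1 peaks numbered 367 of 4727 on 1L (7.76%) and 276 of 3449 on 1S, where 7.64% of all common regions had as many. Regions of 1 kb or more made up 6.09% on 1L (288) and 5.71% on 1S (197). In the other 16 chromosomes this share had a median of 5.52% and ran from 4.86 to 6.48%, so both were within that range. In all, regions covered 2497 kb of 1L (1.14%) and 1787 kb of 1S (0.993%). The widest of 1L were 3540 bp at 96781833 to 96785372, 3162 bp at 154019063 to 154022224 and 2875 bp at 131579579 to 131582453. The widest of 1S were 2654 bp at 288343 to 290996, 2626 bp at 126979517 to 126982142 and 2493 bp at 83778187 to 83780679. The widest region of 1L was not among the strong ones, at 10.7 in library 1, 58.5 in library 2 and a mean percentile of 74.1. The second widest of 1L and of 1S are the central regions of the chains near 70%.

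Strength was taken as the percentile of a region's highest peak within the list of each library. The median region of 1L stood at the 55.1 percentile of library 1 and the 80.5 percentile of library 2, and that of 1S at 51.6 and 79.8. These levels are not comparable between libraries, because common regions take in most library 1 peaks but a minority of library 2 peaks. The medians of the mean of both were 66.6 on 1L (interquartile range 47.8 to 82.1) and 65.2 on 1S (46.6 to 81.6), a difference of 1.40 points that was 3.50 points in library 1 and 0.774 in library 2. Of the 18 chromosomes, 1L ranked 6 and 1S ranked 16 by this median. The top 10% of all common regions by mean percentile held 457 regions of 1L (9.67%, 95% interval 8.84 to 10.5%) and 293 of 1S (8.50%, 7.59 to 9.48%), where 10% of all common regions are called. Per Mb there were 2.08 such regions on 1L and 1.63 on 1S, a ratio of 1.28. The other 8 pairs ran from 1.03 to 1.28, so pair 1 stood at the upper end of the pairs, level with pair 3, and no test sets it apart.

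Both libraries ranked the regions alike on each chromosome. The rank correlation of the percentiles was 0.771 across the 4727 regions of 1L and 0.758 across the 3449 of 1S, given as a description because regions share libraries and are no replicates. Of the 440 regions of 1L in the top 10% of library 1, 324 (73.6%, 95% interval 69.3 to 77.7%) were in the top 10% of library 2. On 1S it was 201 of 282 (71.3%, 65.6 to 76.5%). Over all chromosomes and scaffolds 70.6% were, so both chromosomes were near the background.

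**Figure D5:**
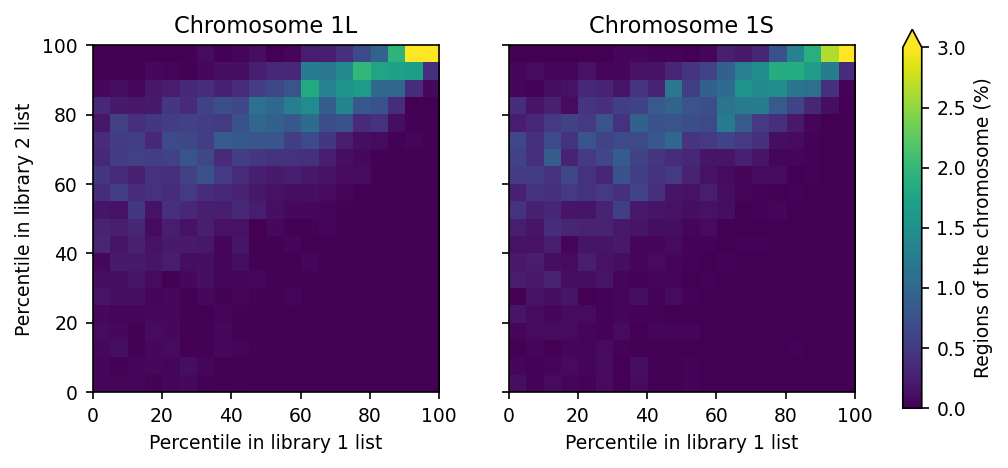
Percentile of each common region in the library 1 list (x axis) and the library 2 list (y axis) for 1L (left) and 1S (right), as the percentage of the chromosome's regions in squares of 5 by 5 points. In both panels regions spread over the whole range of library 1 but sit high in library 2, with medians of 55.1 and 80.5 on 1L and 51.6 and 79.8 on 1S. Common regions take in most library 1 peaks but a minority of library 2 peaks, so the levels are not comparable between libraries.

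Among the 10 strongest regions of 1L, library 1 values ran from 84.4 to 138 and library 2 values from 172 to 245. Among the 10 of 1S they ran from 76.7 to 106 and from 171 to 239. All 20 stood above the 99.4 percentile in both lists. The highest library 2 value of either chromosome, 296, belonged to a region of 1S that was not among these by mean percentile. The strongest of 1L was at 32831309 to 32832059, 751 bp wide, and had 117 in library 1 and 213 in library 2. It was followed by 54142345 to 54143871 (103 and 218), 58968233 to 58969197 (90.6 and 237), 202228118 to 202229085 (98.0 and 207) and the central chain region at 154019063 to 154022224 (96.3 and 199). The region at 192822811 to 192823394, only 584 bp wide, had the highest library 2 value among them (84.4 and 245). The other 4 of 1L were at 184564507, 163541414, 58842520 and 112698853.

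On 1S the strongest region, at 49373025 to 49374636 (101 in library 1 and 218 in library 2), was followed by a narrow one of 529 bp at 25714555 to 25715083 (100.1 and 201). The third was at 123590121 to 123590741 (85.9 and 239), with a neighbour 0.326 kb away. Next came 29317631 to 29318759, at 84.4 in library 1 and 205 in library 2, and 117885800 to 117886453, at 82.2 and 208. The other 5 of 1S were at 13258155, 108751772, 126290551, 166662538 and 111456355. In the deposited orientation 5 of the 10 of 1L and 6 of the 10 of 1S had one of the other 10 within 2% of the same relative position. With 1S reversed it was 4 and 4, so the strongest regions gave little difference between the orientations. The lowest of all were at 29572994 to 29573146 on 1L, at 2.18 in library 1 and 2.60 in library 2, and at 9581909 to 9582070 on 1S, with 1.57 and 1.72.

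Strong regions were wider and lay more often in dense windows on both chromosomes. The rank correlation of strength with the distance to the nearest neighbour was weak. The share in the top 10% nevertheless fell from regions with a neighbour under 5 kb away to those with 100 kb free on both sides. The rank correlation of width and mean percentile was 0.570 on 1L and 0.582 on 1S. Both measures come from the same peaks, since width spans a region's peaks and strength is the highest value among them. How far this ties them was not tested. Regions of the widest tercile had a median mean percentile of 81.3 on 1L and 79.9 on 1S, and those of the narrowest had 48.6 on 1L and 46.7 on 1S. Regions in windows with 10 or more had a median of 71.3 on 1L and 72.1 on 1S, and regions alone in their window had 62.8 on 1L and 62.1 on 1S. The share in the top 10% was 16.3% (95% interval 13.1 to 19.9%) in dense windows of 1L and 18.1% (12.9 to 24.3%) in those of 1S. Among regions alone in their window it was 3.27% (1.95 to 5.11%) on 1L and 3.73% (2.23 to 5.84%) on 1S. The rank correlation of mean percentile with the distance to the nearest neighbour was −0.0548 on 1L and −0.0358 on 1S. Regions with a neighbour under 1 kb away had a lower median than all regions, 64.6 on 1L and 62.8 on 1S, and 9.54% of them on 1L and 12.9% on 1S were in the top 10%. With a neighbour under 5 kb away the medians were 68.3 on 1L and 66.3 on 1S, and the shares in the top 10% were 12.7 and 11.5%. With the nearest neighbour at 5 to 20 kb the shares were 9.98% on 1L and 8.82% on 1S. At 20 to 100 kb they were 5.57% on 1L and 4.64% on 1S. Regions with 100 kb free on both sides reached the top 10% in 3 of 169 cases on 1L (1.78%) and 3 of 162 on 1S (1.85%). Width moved with these classes, at a median of 519 bp in dense windows and 418 bp in windows of 1 on 1L, and 504 and 413 bp on 1S, and its part in the result was not tested. Next to each other along the chromosome, regions had nearly unrelated strengths, with a rank correlation between neighbours of 0.0203 on 1L and 0.0453 on 1S.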

How the data were processed

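The authors deposited a peak list for each of the ChIP libraries and a further list, of common regions, with coordinates alone. Bowtie2 2.2.3 and MACS2 are named, without role or settings, per the submitters' processing notes. The value per peak deposited by the authors was taken for −log10 of a p or q value, judged by its range, whose lower ends of 1.33 in library 1 and 1.31 in library 2 lie just above −log10 of 0.05; which of these it is remains unknown. Depth and genome build are not given in the sources used here.

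From these lists, density, distance between neighbours, width, counts per window (by midpoint) and rank correlations of counts per bin were computed. Percentiles are ranks within each list, with an overlap of at least 1 bp. Start positions count from 1. Named are, per chromosome, the 10 strongest and 3 widest regions, the 5 densest 100-kb windows, the densest and sparsest 1-Mb windows, the 5 largest chains and the 3 longest gaps. Members, lists and rules were chosen with earlier results of these data known. All values are descriptions of 1 chromosome pair, and no p-value was computed. The bin correlation, density ratio, chains, close-neighbour counts, window counts and overlaps were checked on simulated data. The other measures were not checked in this way. Python 3.11.15, numpy 2.4.6, scipy 1.17.1, pandas 2.3.3 and matplotlib 3.10.9 were used.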

Additional observations from a re-analysis of the deposited data

How the results depend on the processing

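The L to S density ratio of 1.12 was above 1 in every setting tried. It was 1.20 with peak values of at least 10 in each library, 1.17 among regions above the median strength, 1.11 without stretches of 100 kb or longer that hold no library 2 peak, and 1.10 to 1.12 with 1 library left out. The median distance on 1L over that on 1S was 0.859, and 0.796 at values of at least 10, 0.845 above the median strength, 0.843 with reciprocal overlap of 50%, and 0.901 to 0.902 with 1 library left out. The share of neighbours under 5 kb on 1L minus that on 1S, −0.308 percentage points, turned to 1.40 at values of at least 10, to 0.620 above the median strength and to 3.16 for distances under 20 kb, and spanned −0.124 to 2.06 with 1 library left out, so its sign has no weight. The difference in median width, 2 bp, was 13.5 bp at values of at least 10, 1 bp among regions with 1 peak of each library, 5 bp for the part covered by both libraries, and 4 to 5 bp with 1 library left out.

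Dense windows, 41 on 1L and 16 on 1S, numbered 4 and 2 at values of at least 10 and also above the median strength, since fewer regions were left. Windows of 1000 kb with 50 or more numbered 4 and 3. With 1 library left out there were 58 to 377 on 1L and 33 to 257 on 1S, the highest from the longer list of library 2. The rank correlation of profiles in the deposited orientation, 0.223, was 0.218 at values of at least 10, 0.211 above the median strength, 0.514 with 50 bins, 0.116 with 200, 0.570 with 20 (added after the data were seen), 0.286 without the first and last 10 bins, 0.0899 without the densest 5 bins of each chromosome, 0.247 for library 2 peaks without a library 1 peak, and 0.233 with either library left out. Reversed, −0.0635 became −0.0240, −0.00178, −0.139, −0.100, −0.259, −0.123, 0.0959, −0.0934 in the same order, and −0.109 to −0.0733 with 1 library left out. Without the densest bins, 100 bins thus no longer gave the higher value in the deposited orientation, and the cause was not tested. With fewer bins the order stayed: 0.498 in the deposited orientation and −0.168 reversed with 20 bins without the densest, 0.410 and −0.118 without the densest 2, and 0.425 and −0.0158 with 50 bins without the densest 3 (added after the data were seen).

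Matched dense windows, both chromosomes together, numbered 27 in the deposited orientation and 19 reversed. They were 10 and 7 for the 10 densest, 65 and 42 for the 40 densest, 15 and 12 within 1%, 38 and 32 within 5%, and 23 to 25 and 16 to 17 with 1 library left out. The strength difference of 1.40 points was 0.774 to 3.50 with 1 library left out. The share of top library 1 regions of 1L also in the top of library 2, 73.6%, was 67.5% with a limit of 5%. By the lower of both percentiles, 9 of the 10 strongest regions remained on each chromosome. Each peak list is named by the letters of a ChIP library and its input, A with D and C with F. No paired analysis was possible because no test between ChIP and input samples can be made from lists of peaks. Unknown depth and unplaced sequence limit the L to S comparison.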

Other observations

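Both ends of 1L and 1S held fewer common ETS2 regions per Mb than the remainder. Only the last 5% of 1S was the sparsest bin of its chromosome, and this did not hold in library 2 alone. The first 5% of the length held 19.6 regions per Mb on 1L and 18.4 on 1S, which is 0.910 and 0.961 times the density of the remainder. Among the other 16 chromosomes this ratio had a median of 1.44 and ran from 0.779 on 2S to 2.10 on 6S. The last 5% held 18.7 per Mb on 1L and 12.2 on 1S, or 0.866 and 0.626 times the remainder, beside a median of 0.949 and a range of 0.537 to 1.89 in the other 16. Of the 20 bins of 5%, ordered from the densest, the first ranked 12 on 1L and 10 on 1S, and the last ranked 13 and 20. No test was made of the differences from the remainder.

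Library 2 peaks that met no library 1 peak numbered 7739 on 1L (35.2 per Mb) and 5802 on 1S (32.2 per Mb), a ratio of 1.09. Their median value was 6.51 on 1L and 6.43 on 1S, and their median width 218 bp on 1L and 217 bp on 1S. The library 2 peaks that did meet one had median values of 36.3 on 1L and 34.5 on 1S and median widths of 451 and 449 bp.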
